A study of Mus musculus with 12 samples.

Results

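The NF-kB subunits and inhibitors were examined as 10 genes chosen by symbol: the subunits Nfkb1, Nfkb2, Rela, Relb and Rel, and the inhibitors Nfkbia, Nfkbib, Nfkbie, Nfkbiz and Tnfaip3. Of these, 9 were measured, each by 1 probe set, among 19938 genes in all. Nfkb1 was not analysed here, because no probe set was paired with its symbol in the platform annotation. RNA came from the contused spinal cord of mice on a C57BL/6 background that were wild type, lacked Il1a (Il1a KO) or lacked Il1b (Il1b KO). All mice were 8 to 12 weeks old and all were injured with a force of 50 kdyn. The cord was taken 24 h later as a 6 mm segment centred on the lesion, so no uninjured cord stands beside these values. Each group had 4 arrays, 12 in all. The labels call them biological replicates without naming animals, so a p-value measures the spread between arrays, which may in part be technical.

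NF-kB is a family of dimeric transcription factors that wait in the cytoplasm, bound by inhibitor proteins of the IkB family. Signals such as interleukin-1, tumour necrosis factor and bacterial products activate a kinase complex that marks the inhibitors for destruction and frees the dimers to enter the nucleus. Among the genes they switch on are several of their own inhibitors and subunits, which makes the transcripts of Nfkbia, Tnfaip3, Nfkbiz and Nfkb2 common readouts of the pathway in inflamed tissue. Activation itself is a change of protein, which transcript levels do not show.

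The promoters of the family are shown because this feedback runs through kappaB sites. Nfkbia and Nfkb2 were correlated across the 12 arrays by Pearson's r but not by rank, as described further on. A link between that correlation and the sites was not tested. RefSeq windows of GRCm38.p6 covered 7 of the 10 genes with 10 starts. The 250 bases before each start were searched on both strands for the kappaB consensus, and overlapping matches were kept. A match was present in 7 of the 10 windows and in 5 of the 7 genes (Nfkb2, Rel, Nfkbia, Nfkbie and Tnfaip3), against 7.25% of all 32851 windows and 8.23% of all 27025 genes with a window. Pathway lists described further on were above that share too. With a window, 12 of 28 target genes (42.9%), 4 of 15 other inhibitors and brakes (26.7%) and 4 of 21 kinases and adaptors (19.0%) had a match. The windows of Rela and Nfkbib and the second one of Tnfaip3 held none. Nfkb1, Relb and Nfkbiz had no entry. A match describes the letters of a window and does not show that a site is used. In the first line below, the whole Nfkbia window (chr12:55492648-55492897, minus strand) is given 5′ to 3′. The other lines give single matches with up to 10 bases on either side, and capitals mark the match that the line names. Not every match is shown. Rel had another at -91 to -82, overlapping the one given. Nfkb2 had others at -38 to -29 and -11 to -2, and before its other starts at -236 to -227 and -225 to -216.
Nfkbia, the match at -29 to -20 before the start: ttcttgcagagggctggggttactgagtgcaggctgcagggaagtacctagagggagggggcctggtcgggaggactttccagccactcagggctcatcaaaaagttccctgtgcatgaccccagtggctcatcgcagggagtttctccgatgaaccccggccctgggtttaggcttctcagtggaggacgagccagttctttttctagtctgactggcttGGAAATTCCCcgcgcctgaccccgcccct
Tnfaip3, -12 to -3 (chr10:19015411-19015432, minus strand): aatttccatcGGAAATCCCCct
Tnfaip3, -125 to -116 (chr10:19015516-19015545, minus strand): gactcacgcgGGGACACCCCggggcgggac
Rel, -92 to -83 (chr11:23771042-23771071, minus strand): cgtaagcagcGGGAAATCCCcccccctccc
Nfkbie, -106 to -97 (chr17:45555584-45555613, plus strand): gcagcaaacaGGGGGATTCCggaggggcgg
Nfkb2, -39 to -30 (chr19:46304688-46304717, plus strand): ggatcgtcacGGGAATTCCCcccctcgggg

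The medians of the 12 arrays ran from 7.67 to 7.72 in log2 units. The targeted genes were checked against the labels. Wild-type arrays had a mean Il1b value of 7.83 (SD 0.161, n = 4), the Il1b KO one of 6.42 (SD 0.183, n = 4). For Il1a the means were 5.87 (SD 0.232, n = 4) in wild type, 4.97 (SD 0.0749, n = 4) in the Il1a KO and 5.10 (SD 0.209, n = 4) in the Il1b KO, so the Il1b KO fell below wild type in Il1a too (log2 difference -0.77, limma adjusted p = 0.0039). The mean of neuron markers was 11.37 to 11.45 in every array. That of 9 oligodendrocyte markers was 11.67 to 11.81 in wild type, 11.82 to 11.99 in the Il1a KO and 11.78 to 11.91 in the Il1b KO, so the Il1a KO lay above wild type without overlap, and 9 of 9 markers were above 0 in both knockouts (median log2 differences 0.088 and 0.10). Of 10 skeletal muscle markers, 10 were below 0 in both (medians -0.14 and -0.15). None of these markers passed the test, and their part in the results below was not tested. One array stood apart: Il1a KO replicate 1 had an Xist value of 6.47 against 11.9 to 12.2 elsewhere and an Eif2s3y value of 9.16 against 3.65 to 3.94, a male profile among females. The differences of Nfkbia and Nfkbiz, the marker lists of blood cells and the correlations that passed are also given without it. The tissue was bulk, so fewer cells of a type and less RNA per cell cannot be told apart in any value that follows.

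No member of the family passed the test in either knockout or between the knockouts (0 of 9 in each, limma, Benjamini-Hochberg adjustment over all genes). Over all genes tested, 0.171% passed in the Il1a KO against wild type, 0.813% in the Il1b KO against wild type and 0.652% between the knockouts. At an unadjusted p under 0.05, 1 member was lower and 0 were higher in the Il1a KO, against 3.77% and 4.54% of all genes. There were 0 in either direction in the Il1b KO, against 4.58% lower and 8.42% higher. Between the knockouts 2 were lower in the Il1a KO and 0 higher, against 4.80% and 2.99%. Arrays of the groups did not overlap for 1 member in the Il1a KO (5.06% of all genes), for 0 in the Il1b KO (7.00%) and for 0 between the knockouts (7.24%). The smallest adjusted p of any member was 0.421 (Nfkbiz in the Il1a KO). The 95% intervals of the 9 log2 differences from wild type together spanned -0.41 to 0.19 in the Il1a KO and -0.19 to 0.32 in the Il1b KO. Their outer limits are a 1.33-fold lower and a 1.14-fold higher level in the Il1a KO, and a 1.14-fold lower and a 1.25-fold higher level in the Il1b KO. The limits of -0.41 and 0.32 are those of Nfkbia, the least precise member (SE 0.104), and the smallest SE was 0.0432 (Relb). The median log2 difference of the 9 members was -0.036 in the Il1a KO (6 of 9 below 0) and 0.0048 in the Il1b KO (4 of 9), against 3e-04 and 0.0040 over all genes. Both knockouts were compared with the same wild-type arrays.

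**Figure D1:**
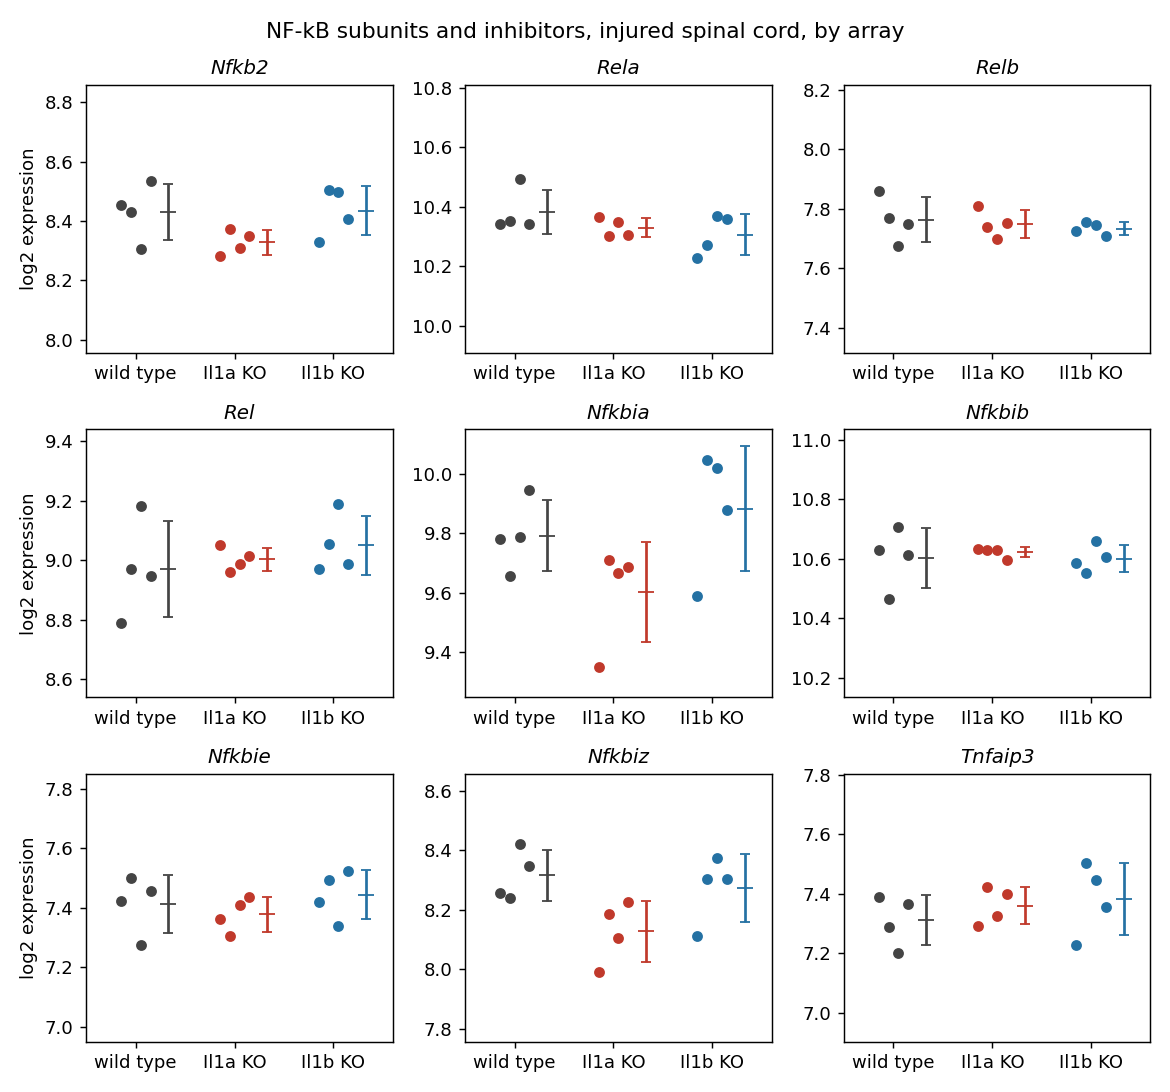
Log2 expression (y axis, the same height of 0.9 log2 units in every panel) of the 9 measured genes in wild type, Il1a KO and Il1b KO, 1 point per array in order of the replicate number, with the group mean and SD beside the points. Only Nfkbiz has no overlap between the Il1a KO and wild type, by a narrow margin (8.23 against 8.24).

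Among the subunits, Rela encodes the main activating partner of the classical dimer. Its log2 values were 10.34, 10.35, 10.49 and 10.34 in wild type, 10.36, 10.30, 10.35 and 10.30 in the Il1a KO and 10.23, 10.27, 10.37 and 10.36 in the Il1b KO. Wild type replicate 3 was the highest of all arrays, and the other arrays of the 3 groups overlapped. The log2 difference from wild type was -0.052 in the Il1a KO (SE 0.0470, 95% interval -0.15 to 0.050, limma adjusted p = 0.877) and -0.075 in the Il1b KO (SE 0.0470, 95% interval -0.18 to 0.027, limma adjusted p = 0.540). Rel encodes c-Rel, a subunit used most by blood cells. Its values were 8.79, 8.97, 9.18 and 8.95 in wild type, 9.05, 8.96, 8.99 and 9.02 in the Il1a KO and 8.97, 9.06, 9.19 and 8.99 in the Il1b KO. The wild-type arrays held both the lowest value and one of the highest, and both knockouts lay inside or next to that range. Its log2 differences were 0.031 (adjusted p = 0.978) and 0.079 (adjusted p = 0.695).

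Nfkb2 and Relb encode the partners of the alternative pathway, which lymphotoxin and CD40 drive. Nfkb2 read 8.45, 8.43, 8.30 and 8.53 in wild type, 8.28, 8.37, 8.31 and 8.35 in the Il1a KO and 8.33, 8.51, 8.50 and 8.41 in the Il1b KO. The Il1a KO arrays were the narrowest group and overlapped only the lower part of the wild-type range, with a log2 difference of -0.10 (SE 0.0543, 95% interval -0.22 to 0.015, limma adjusted p = 0.687). The Il1b KO mean lay close to the wild-type mean, with a difference of 0.0048 (95% interval -0.11 to 0.12, limma adjusted p = 0.981). Relb read 7.86, 7.77, 7.67 and 7.75 in wild type, 7.81, 7.74, 7.70 and 7.75 in the Il1a KO and 7.73, 7.76, 7.74 and 7.71 in the Il1b KO. All 3 groups overlapped, and its SE of 0.0432 was the smallest of the family, so its intervals were the tightest: -0.11 to 0.080 in the Il1a KO and -0.12 to 0.064 in the Il1b KO.

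Nfkbia (chr12:55489409-55492647 in GRCm38.p6), which encodes IkB alpha, the inhibitor that is degraded and made anew in each round of activation, varied most between arrays of 1 genotype. Its SD within groups was 0.170, at percentile 94.7 of all genes, against a median of 0.0841. Its values were 9.78, 9.66, 9.79 and 9.94 in wild type, 9.35, 9.71, 9.67 and 9.69 in the Il1a KO and 9.59, 10.05, 10.02 and 9.88 in the Il1b KO. Il1a KO replicate 1 was the lowest array and Il1b KO replicate 1 the next, while the 2 highest were Il1b KO replicates 2 and 3. The log2 difference from wild type was -0.19 in the Il1a KO (SE 0.104, 95% interval -0.41 to 0.036, limma adjusted p = 0.705) and 0.091 in the Il1b KO (SE 0.104, 95% interval -0.14 to 0.32, limma adjusted p = 0.760). Set directly against each other, the Il1a KO was 1.21-fold below the Il1b KO (log2 difference -0.28, unadjusted p = 0.0190, limma adjusted p = 0.484, exact two-sided permutation p = 0.114). Without Il1a KO replicate 1 the difference from wild type was -0.11 (adjusted p = 0.998) and that between the knockouts -0.20 (adjusted p = 0.756), so 1 array carried much of both.

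Nfkbiz (chr16:55811375-55838954 in GRCm38.p6) encodes IkB zeta, an inducible nuclear member of the IkB family that helps switch on a second set of genes after interleukin-1 or Toll-like receptor signals. Its values were 8.26, 8.24, 8.42 and 8.35 in wild type, 7.99, 8.18, 8.10 and 8.23 in the Il1a KO and 8.11, 8.30, 8.37 and 8.30 in the Il1b KO. Every Il1a KO array lay below every wild-type array, though only just, and the Il1b KO overlapped both. The Il1a KO mean was 8.13 (SD 0.103, n = 4) against 8.32 (SD 0.0850, n = 4) for wild type, 1.14-fold lower (log2 difference -0.19, SE 0.0668, 95% interval -0.33 to -0.044). This had an unadjusted p of 0.0145 and an adjusted p of 0.421 by limma, and ranked 684 of 19938 genes by p. The exact two-sided permutation p was 0.0286, the smallest that 4 against 4 arrays can give. Over all genes, 2.19% had every Il1a KO array below every wild-type array. Without Il1a KO replicate 1 the log2 difference was -0.14 (adjusted p = 0.91). In the Il1b KO it was -0.042 (SE 0.0668, 95% interval -0.19 to 0.10, limma adjusted p = 0.836), and between the knockouts -0.15 (unadjusted p = 0.0472, adjusted p = 0.632), or -0.10 without Il1a KO replicate 1 (adjusted p = 0.807).

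The means of the remaining inhibitors differed from wild type by at most 0.072 in log2 units, and none passed. Nfkbib, which encodes IkB beta, ranged from 10.46 to 10.71 in wild type, from 10.60 to 10.63 in the Il1a KO and from 10.55 to 10.66 in the Il1b KO. Its log2 differences from wild type were 0.020 and -0.0026. Nfkbie, which encodes IkB epsilon, ranged from 7.28 to 7.50, from 7.30 to 7.44 and from 7.34 to 7.52 in the same order, with differences of -0.036 and 0.030. Tnfaip3 encodes a ubiquitin-editing enzyme that shuts off signalling upstream of the kinase complex. It ranged from 7.20 to 7.39, from 7.29 to 7.42 and from 7.23 to 7.50, with differences of 0.048 (95% interval -0.086 to 0.18) and 0.072 (95% interval -0.062 to 0.21). The groups overlapped in each of these genes, and their limma adjusted p ran from 0.671 (Tnfaip3 in the Il1b KO) to 0.989 (Nfkbib in the Il1b KO).

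**Figure D2:**
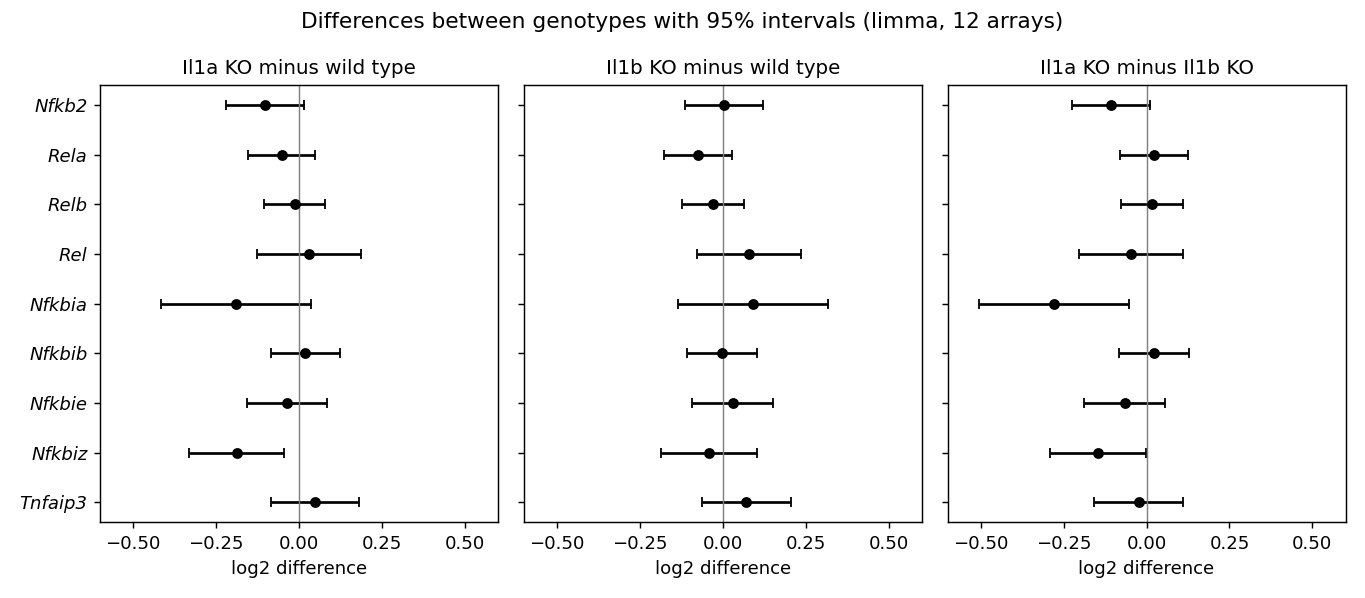
Log2 difference (x axis) of each gene (y axis) for the Il1a KO minus wild type, the Il1b KO minus wild type and the Il1a KO minus the Il1b KO; points are limma estimates from 12 arrays and bars their 95% intervals, not adjusted for the number of genes. The intervals that leave out 0 are those of Nfkbiz in the Il1a KO (-0.33 to -0.044) and of Nfkbia (-0.51 to -0.054) and Nfkbiz (-0.29 to -0.0021) between the knockouts.

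The genes were then compared with each other across the 12 arrays, with permutation p-values adjusted over the 36 pairs. Nfkbia and Nfkbiz varied together most closely (Pearson's r = 0.84, permutation p = 0.00062, adjusted p = 0.0198; Spearman's rho = 0.85, permutation p = 0.00089, adjusted p = 0.0320). The relation was similar for deviations from the group means (r = 0.83) and without Il1a KO replicate 1 and Il1b KO replicate 2, the arrays farthest from the median of Nfkbia (r = 0.79). Of all other genes, 0.231% were as highly correlated with Nfkbia as Nfkbiz was. Nfkb2 and Nfkbia also varied together (r = 0.81, permutation p = 0.0011, adjusted p = 0.0198), with r = 0.73 without wild type replicate 4 and Il1b KO replicate 2. Its rank correlation did not pass (rho = 0.72, permutation p = 0.0102, adjusted p = 0.122). As highly correlated with Nfkbia as Nfkb2 was were 0.436% of all other genes. Nfkbib and Nfkbie moved in opposite directions (r = -0.75, permutation p = 0.00305, adjusted p = 0.0366; rho = -0.78, permutation p = 0.00395, adjusted p = 0.0711), with r = -0.68 without wild type replicates 2 and 3. No other pair passed. Without Il1a KO replicate 1, a choice made after seeing the data, none of the 3 passed: r was 0.73 for Nfkbia and Nfkbiz (permutation adjusted p = 0.142), 0.78 for Nfkb2 and Nfkbia (adjusted p = 0.120) and -0.74 for Nfkbib and Nfkbie (adjusted p = 0.120). Within the genotypes r is read from 4 arrays each and was not tested there.

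**Figure D3:**
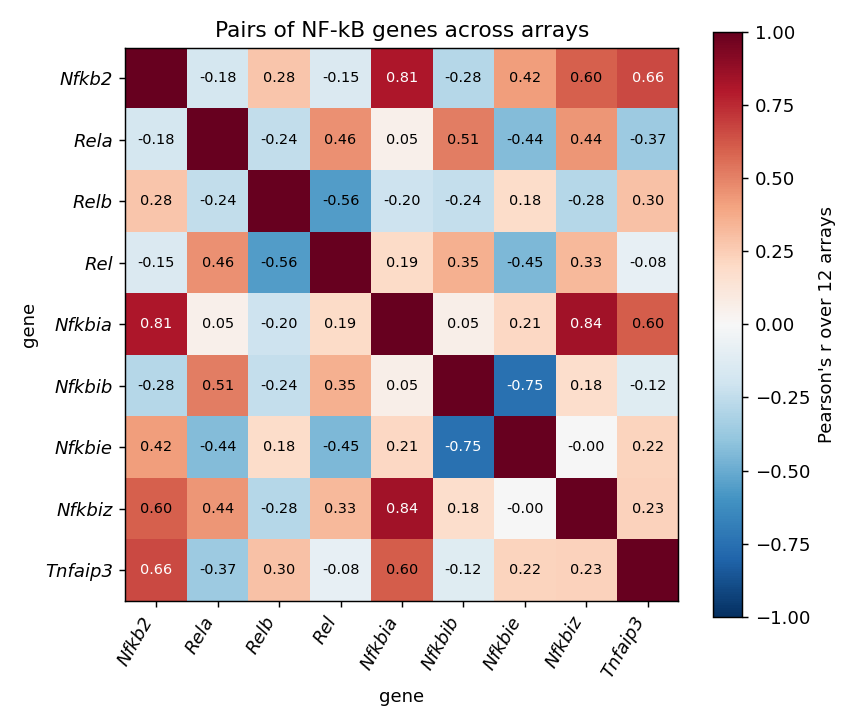
Pearson's r over the 12 arrays for each pair of the 9 genes, coloured from -1 (blue) to 1 (red), with the value in each cell. The block of Nfkb2, Nfkbia, Nfkbiz and Tnfaip3 holds values from 0.23 to 0.84, and Nfkbib against Nfkbie is the lowest cell (-0.75).

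Marker lists of monocytes and macrophages and of neutrophils were compared between the groups, and then with the members across arrays. Of their relations with Nfkbia and Nfkbiz, only that of Nfkbiz with monocytes and macrophages passed by both r and rho. The 9 monocyte and macrophage markers were Ccr2, Chil3, F13a1, Fn1, Arg1, Ms4a6c, Plac8, Vcan and Thbs1. Their mean was 9.25 to 9.61 in wild type, 9.01 to 9.34 in the Il1a KO and 9.11 to 9.46 in the Il1b KO. In the Il1a KO 7 of these 9 markers had a log2 difference below 0 (median -0.15, against 3e-04 over all genes), and in the Il1b KO 6 of 9 (median -0.038). Above 0 were Plac8 (0.042) and Thbs1 (0.016) in the Il1a KO, and Plac8 (0.27), Thbs1 (0.18) and Fn1 (0.056) in the Il1b KO. The mean of 10 neutrophil markers was 7.35 to 7.75, 7.04 to 7.41 and 6.91 to 7.63 in the same order, and 10 of 10 (median -0.35) and 8 of 10 (median -0.21) were below 0. Without Il1a KO replicate 1, 7 of 9 monocyte and macrophage markers (median -0.068) and 9 of 10 neutrophil markers (median -0.29) were below 0 in the Il1a KO. The neutrophil marker Ly6g passed in the Il1b KO (log2 difference -0.55, limma adjusted p = 0.00869), and no other marker of either list passed against wild type.

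Across the 12 arrays Nfkbiz followed the monocyte and macrophage mean with r = 0.96 (permutation p = 1e-05, the smallest the resamples can give, adjusted p = 0.00081 over 81 relations of genes with marker lists). Spearman's rho was 0.94 (permutation p = 4e-05, adjusted p = 0.00324). The correlation was 0.92 without wild type replicate 3 and Il1a KO replicate 1, the arrays at either end of that list, and 0.95 for deviations from the group means. Of the 19928 other genes outside the list, 0 had as high an r with it. Single markers correlated with Nfkbiz at r from 0.47 (Plac8) to 0.89 (F13a1). Nfkbia followed the same mean with r = 0.79 (permutation p = 0.00241, adjusted p = 0.0921; rho = 0.86, permutation p = 0.00063, adjusted p = 0.0255; r = 0.89 without the same arrays). It followed the neutrophil mean with r = 0.75 (permutation p = 0.00513, adjusted p = 0.104; rho = 0.83, permutation p = 0.00124, adjusted p = 0.0335). An r as high as that of Nfkbia was reached by 0.918% of other genes for the monocyte and macrophage mean. For the neutrophil mean it was 0.517%. Rel followed the mean of 9 endothelial markers with r = 0.75 (permutation p = 0.00341, adjusted p = 0.0921; rho = 0.81, permutation p = 0.00218, adjusted p = 0.0441), and r was 0.64 without Il1b KO replicates 2 and 3. These 4 relations were the ones that passed by rank. Without Il1a KO replicate 1, Nfkbiz with the monocyte and macrophage mean still passed (r = 0.94, permutation adjusted p = 0.00243; rho = 0.93, adjusted p = 0.0146), and the other relations did not (rho 0.82, 0.79 and 0.80 in the order given, each with adjusted p = 0.119; r 0.68, 0.69 and 0.75). With the neutrophil mean, r of Nfkbiz was 0.71 (permutation adjusted p = 0.149; rho = 0.76, adjusted p = 0.0828). It was -0.66 for microglia (adjusted p = 0.202), -0.62 for astrocytes (adjusted p = 0.245) and -0.60 for oligodendrocytes (adjusted p = 0.294). For skeletal muscle it was 0.30, for neurons -0.26, for endothelium 0.15 and for lymphocytes 0.15 (permutation p = 0.649, adjusted p = 0.862). None of these passed. The arrays share 1 normalization, and the part of any of these cell types in the difference of Nfkbiz between the Il1a KO and wild type was not tested.

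**Figure D4:**
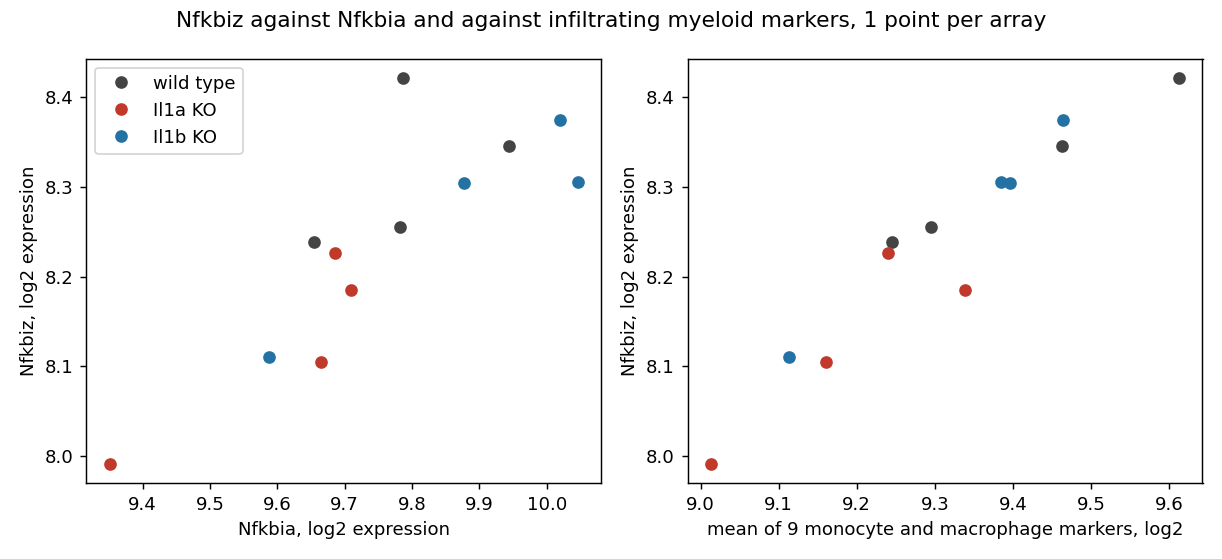
Log2 expression of Nfkbiz (y axes) against that of Nfkbia (left, x axis) and against the mean log2 expression of 9 monocyte and macrophage markers (right, x axis), 1 point per array and coloured by genotype. Il1a KO replicate 1 is the lowest point in both panels, and the points follow a line more closely on the right (r = 0.96) than on the left (r = 0.84).

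For the members whose SD over the 12 arrays exceeded the median of all genes, the most similar other genes were found by Pearson's r. Those of Nfkbia were Il1f9, which encodes the cytokine interleukin-36 gamma (r = 0.94), Itgb2, the beta chain of leukocyte integrins (r = 0.93), and Ctnna1, an adherens junction protein (r = 0.92). Those of Nfkbiz were Gcnt2, a glycosyltransferase (r = 0.94), Runx1, a transcription factor of blood cells (r = 0.94), and Adam8, a leukocyte metalloprotease (r = 0.94). For Rel they were Krr1, Aatf and Atr (r = 0.95, 0.95 and 0.93) and for Tnfaip3 Olfr676, H2al3 and Tiam1 (r = 0.88, 0.87 and 0.86). With 12 arrays and 19938 genes some high values arise in any such ranking, so these are descriptions without a test.

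The wider pathway was read from lists of kinases and adaptors, of other inhibitors and of target genes, and 0 genes of any list passed in any of the 3 comparisons by limma. Of the kinases and adaptors, 22 of 26 were measured. Their median log2 difference from wild type was 0.0075 in the Il1a KO, with all genes between -0.12 and 0.076, and 0.019 in the Il1b KO, with all between -0.075 and 0.12. At an unadjusted p under 0.05, 0 were lower and 0 higher in the Il1a KO, against 3.77% and 4.54% of all genes. In the Il1b KO 0 were lower and 1 higher, against 4.58% and 8.42%. The lowest p in the Il1a KO were those of Myd88, the adaptor of the interleukin-1 receptor (-0.10, adjusted p = 0.708), the kinase Map3k8 (-0.12) and Ikbkg, the scaffold of the kinase complex (-0.072). In the Il1b KO they were those of Ikbkb, its main catalytic kinase (0.10, adjusted p = 0.318), the adaptor Tradd (0.12) and Ikbkg (-0.075).

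The 20 other inhibitors and brakes were all measured. Their median log2 difference was -0.0042 in the Il1a KO and 0.0022 in the Il1b KO. At an unadjusted p under 0.05, 0 were lower and 1 higher in the Il1a KO, against 3.77% and 4.54% of all genes. In the Il1b KO 1 was lower and 0 higher, against 4.58% and 8.42%. Nkiras1, a Ras-like protein that binds IkB (0.14, adjusted p = 0.504), Cyld, a deubiquitinase (0.11), and Commd1 (0.11) had the lowest p in the Il1a KO. Tnip3 (-0.12, adjusted p = 0.341), Cyld (0.12) and Nkiras1 (0.10) had them in the Il1b KO.

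Target genes spread more widely than the regulators. Of 40, 37 were measured. In the Il1a KO 24 were below 0, against 49.8% of all genes (median -0.033), with 5 lower and 0 higher at an unadjusted p under 0.05, against 3.77% and 4.54% of all genes. Without Il1a KO replicate 1, 20 were below 0 (median -0.015). In the Il1b KO 21 were below 0, against 48.0% (median -0.025), with 6 lower and 4 higher, against 4.58% and 8.42%. The chemokine Ccl5 read 8.74, 9.06, 8.98 and 8.91 in wild type, 8.61, 8.67, 8.65 and 8.50 in the Il1a KO and 8.59, 8.64, 8.61 and 8.69 in the Il1b KO. Both knockouts lay below every wild-type array, by 1.24-fold and 1.22-fold on average, and neither difference passed (log2 difference -0.31, limma adjusted p = 0.104, and -0.29, adjusted p = 0.0575). The protease inhibitor Timp1 (-0.43, adjusted p = 0.186) and the neutrophil protease Mmp9 (-0.35, adjusted p = 0.320) were next in the Il1a KO. In the Il1b KO the complement factor Cfb was at -0.19 (adjusted p = 0.114). Cxcl2, a chemokine that attracts neutrophils, had a mean of 8.59 (SD 0.613, n = 4) in the Il1b KO against 7.53 (SD 0.507, n = 4) for wild type, a 2.08-fold higher mean that did not pass (log2 difference 1.06, SE 0.293, limma adjusted p = 0.140). Its arrays overlapped, at 7.70, 8.85, 9.11 and 8.69 against 7.31, 6.93, 7.82 and 8.06.

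**Figure D5:**
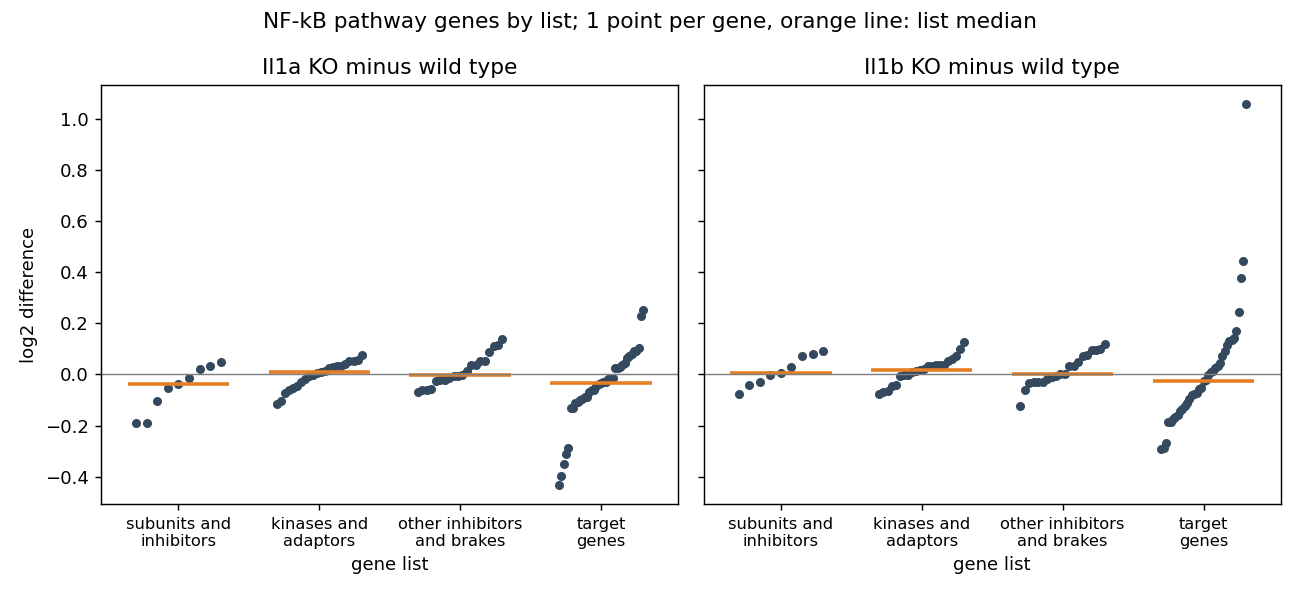
Log2 difference from wild type (y axis) in the Il1a KO (left) and the Il1b KO (right) for each measured gene, by list (x axis); orange lines are list medians. Regulators stay between -0.19 and 0.14 in both knockouts, while target genes run from -0.43 to 0.25 in the Il1a KO and from -0.29 to 1.06 in the Il1b KO.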

How the data were processed

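The deposited log2 values, 1 per probe set and array, were used as the authors left them. The submitters' processing notes name Partek, RMA, limma and GCOS 1.4 without saying which did what. That the values are RMA summaries was inferred from their near-equal quantiles. RMA gives all arrays 1 distribution, so an overall shift would not show, and differences of dim genes are compressed. Scanner files were not used here. A build for the annotation is not given in the sources used here. Among 35557 probe sets, 21789 had 1 gene symbol in the platform annotation and 1621 several, which were left out. Another 12147 had no listed gene. The brightest set stood for each gene. Of 19938 genes, 19856 took RefSeq symbols (GRCm38.p6) through Entrez identifiers.

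A model with 1 mean per genotype was fitted to all 12 arrays with limma 3.58.1 in R 4.3.3, two-sided, adjusted by Benjamini-Hochberg over all genes with 0.05 as the threshold. It was tested on simulated data with independent errors, where only the estimated differences had to match those put in. Differences are the first group minus the second. Correlations used 100000 permutations, two-sided. Named were all members, the targeted genes, the 3 smallest p of each pathway list per knockout, and the 3 most similar genes of the more variable members. The members and lists were chosen with earlier results of these data known. The number of arrays limits the precision. Alternatives covered normalization, dim genes, variance priors, array weights, the groups fitted, the replicate number, probe sets and each array left out.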

Additional observations from a re-analysis of the deposited data

Results flagged for a closer look

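Values of 3 single arrays lay far from the other 3 of their group, among 27 groups of 4 arrays examined, and chance alone gives about 1 such group in 20. Rela in wild type replicate 3 was 10.49, above the other wild-type arrays (10.34 to 10.35). Nfkbia in Il1a KO replicate 1 was 9.35, below the rest of its group (9.67 to 9.71), and this is the array with the male profile. Nfkbib in Il1a KO replicate 4 was 10.60, in a group that otherwise spanned 10.63 only, so the gap is small in size.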

How the results depend on the processing

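No member passed under any of 432 recomputed values, and the smallest adjusted p was 0.095 (Nfkb2 in the Il1a KO with array weights). The direction held in 409 of them, a count that includes settings which cannot change the estimate of a member. Those were the trended and robust priors, the filter on dim genes, only the 2 groups compared, the replicate block and the mean of probe sets. The 23 changes of sign came from the other settings and belonged to 13 differences of at most 0.091 in size. Quantile normalization again gave Nfkb2 -0.011 in the Il1b KO. Array weights gave Nfkb2 -0.087, Nfkbia -0.060 and Tnfaip3 -0.0010 there, and Tnfaip3 0.022 between the knockouts. With each array left out in turn, the ranges that crossed 0 in the Il1a KO were those of Relb (-0.043 to 0.018), Rel (-0.030 to 0.10) and Nfkbib (-0.027 to 0.054). In the Il1b KO they were those of Nfkb2 (-0.037 to 0.040), Relb (-0.059 to 0.0023), Nfkbib (-0.049 to 0.032), Nfkbie (-0.016 to 0.065) and Nfkbiz (-0.075 to 0.013). Between the knockouts they were those of Rela (-0.0038 to 0.044), Relb (-0.0044 to 0.033) and Tnfaip3 (-0.075 to 0.017). The cause was not tested.

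Counts over all genes moved more. The 34 genes of the Il1a KO became 72 with a trended prior, 306 with array weights and 15 with only the 2 groups compared, and 18 to 49 with 1 array left out (18 without wild type replicate 4, 19 without Il1a KO replicate 3 or 4). The 162 of the Il1b KO became 303, 1145 and 85, and 106 to 177 (106 without wild type replicate 4, 107 without Il1b KO replicate 1). The 130 between the knockouts became 244 with array weights. With the replicate block they were 26, 120 and 105. The labels share only numbers across genotypes: 2 of 12 same-numbered pairs correlated above 0.1, and an array's best match had its own number in 4 of 24 cases. All 9 members passed the filter on dim genes. Leaving out Il1a KO replicate 1, chosen after seeing the data, ended the calls of all 3 member pairs and of 3 of the 4 marker relations that passed by rank, and kept that of Nfkbiz with the monocyte and macrophage list. Among the ended calls, r hardly moved for Nfkbib with Nfkbie (-0.75 to -0.74) and for Rel with endothelium (0.75 in both). For Nfkbia, r fell with Nfkbiz (0.84 to 0.73), Nfkb2 (0.81 to 0.78), monocytes and macrophages (0.79 to 0.68) and neutrophils (0.75 to 0.69).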

Other observations

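Between the knockouts, 3 genes of the pathway lists had arrays that did not overlap, named here after their values were seen. They were 0 of 22 kinases and adaptors, 1 of 20 other inhibitors and brakes, and 1 lower and 1 higher of 37 target genes. This is not above the 7.24% of all genes. N4bp1, an RNA-binding inhibitor of NF-kB signalling, was lower in the Il1a KO than in the Il1b KO (log2 difference -0.094, limma adjusted p = 0.541). The target gene Csf1, a growth factor of macrophages and microglia, was lower as well (log2 difference -0.069, limma adjusted p = 0.782). The target gene Cfb was higher, with a mean of 7.22 (SD 0.0606, n = 4) in the Il1a KO and 7.07 (SD 0.0727, n = 4) in the Il1b KO (log2 difference 0.15, limma adjusted p = 0.359). None of the 3 passed.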
